A study of Mus musculus with 4 samples.

Results

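Stromal cells can shape the vessels of a tumor through secreted angiogenic factors, and 9 genes for such factors and their co-receptors, *Vegfa*, *Vegfb*, *Vegfc*, *Pgf*, *Angpt1*, *Angpt2*, *Hgf*, *Nrp1* and *Nrp2*, were followed in cells sorted from leukemic tumors. They were chosen by name, as all array probes other than controls whose transcript accession maps to these symbols. All 9 were found among the 22907 gene symbols on the array, with 18 probes, each printed on 1 spot. VEGF-A drives the sprouting of blood vessels through its receptor Kdr, VEGF-C acts mainly on lymphatic vessels through Flt4, and VEGF-B and placental growth factor (*Pgf*) bind Flt1. Angiopoietin-1 from perivascular cells activates the receptor Tek (Tie2) and stabilizes vessels, whereas angiopoietin-2 can oppose it. HGF is a product of mesenchymal cells that acts on Met, and both neuropilins are co-receptors shared by VEGFs and class 3 semaphorins.

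C57BL/6Ncr mice aged 8 weeks, either Wt or carrying the sipa1 KO (*Sipa1*-/-), received GFP+ hematopoietic progenitor cells expressing Bcr-Abl under the skin in Matrigel, at 15000 cells per mouse, and the tumors were collected on day 12. Mesenchymal stroma cells (MSCs) were sorted as GFP- CD45- Ter119- CD31- cells and CD8+ T cells as GFP- TCRb+ CD8+ cells, and the RNA of each cell type and genotype was hybridized to 1 Agilent one-color array. The study used 5 mice per genotype, and whether their cells were pooled for the arrays is not given in the sources used here. The MSC gate is defined by absent markers only. Each of the 4 conditions has 1 array, so there is no replicate check and nothing was tested. Levels are log2 spot signals minus the 75th percentile of the array, so that 0 is that percentile. A level is compared only between arrays for the same probe. The gene of highest signal named for a marker list depends on the probes and does not rank abundance. The 4 readings of a probe are listed as Wt MSC, *Sipa1*-/- MSC, Wt CD8+ and *Sipa1*-/- CD8+. A spot counts as well above background by the scanner's own flag, and a gene value is the mean log2 ratio of its probes that passed the spot flags on both arrays compared. For the probes of the 9 genes the scanner's own error of a genotype ratio in MSCs was between 0.20 and 0.30 on the log2 scale, which covers the reading of the spots and not the spread between mice.

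*Sipa1*, the deleted gene, was lower on both *Sipa1*-/- arrays. The probe A_55_P2133840 read 5.03, 3.78, 5.40 and 3.73. The probe A_51_P191331 read 3.05, 1.46, 3.43 and 1.39. The mean log2 ratio was -1.42 in MSCs and -1.86 in CD8+ T cells. Both probes remained well above background on every array, and which exons the knockout allele lacks is not given in the sources used here.

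In MSCs all 9 angiogenic factors, and 51.8% of all genes, had a higher gene value on the *Sipa1*-/- array than on the Wt array. Of the angiogenic factors 5 of 9 were at least 2-fold higher, namely *Hgf*, *Angpt1*, *Nrp1*, *Vegfc* and *Pgf*. Of the 15294 genes measured on both MSC arrays 19.3% were. With another background correction, normexp on the median spot signal with an offset of 50 added, *Vegfc* (0.99) and *Pgf* (0.92) were short of 2-fold, which left 3 of 9, and 1827 of all genes passed in place of 2956. At the other end 0 of 9 were at least 2-fold lower, against 11.3% of all genes. These all-gene shares apply to each list counted in MSCs below. The median log2 ratio of the 9 was 1.22, with a range from 0.24 for *Angpt2* to 1.91 for *Hgf*, and that of all genes was 0.04, which turned to -0.10 when the arrays were aligned by their medians instead (median shift). The 9 directions were the same with every scaling tried, and with the probe of highest signal per gene that of *Nrp2* turned to -0.66. Probe by probe, 16 of the 18 were higher on the *Sipa1*-/- array and 12 of them at least 2-fold.

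**Figure D1:**
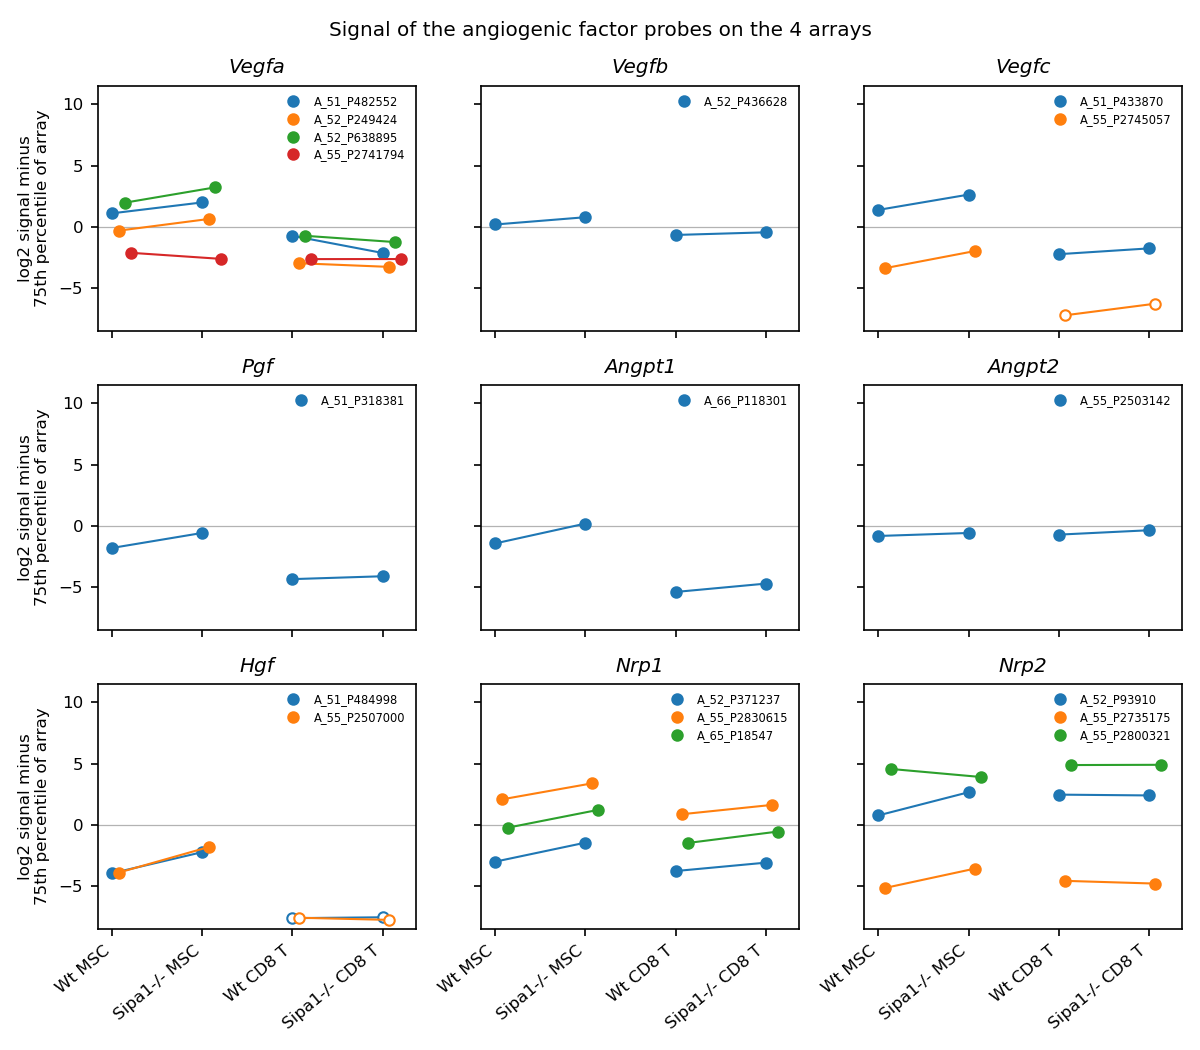
Level of each of the 18 probes on the 4 arrays, as log2 signal minus the 75th percentile of the array, with 1 panel per gene and lines joining the genotypes of a cell type. Open circles are spots not well above background, as for both *Hgf* probes on the CD8+ T arrays.

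*Hgf*, the ligand of Met, had a higher signal in *Sipa1*-/- MSCs on both of its probes. Its probe A_51_P484998 read -3.96 on the Wt and -2.23 on the *Sipa1*-/- MSC array, and A_55_P2507000 read -3.91 and -1.82. On both CD8+ T arrays neither probe was well above background, at readings between -7.77 and -7.56. *Hgf* signal was thus found in the MSC samples alone, and both probes were brighter in the *Sipa1*-/- MSCs. The log2 ratios were 1.72 and 2.09, and their mean of 1.91 corresponds to 3.75-fold, which was 1.00 on the log2 scale with normexp. Against the lowest signal counted as well above background on the CD8+ T array of the same genotype, the MSC signal was at least 3.04-fold and at least 3.15-fold higher in Wt and at least 9.57-fold and at least 12.7-fold higher in *Sipa1*-/- cells.

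Among the angiopoietins, *Angpt1* and *Angpt2* had different patterns. The single *Angpt1* probe read -1.44, 0.18, -5.41 and -4.73. *Angpt1* was therefore brighter in the *Sipa1*-/- MSCs than in the Wt MSCs, with a log2 ratio of 1.62, or 3.07-fold. The background ring around this spot was marked as non-uniform on both CD8+ T arrays, so that no ratio with those arrays was counted. The *Angpt2* probe read -0.83, -0.59, -0.73 and -0.37. These 4 readings lay close together, and the log2 genotype ratios were 0.24 in MSCs and 0.36 in CD8+ T cells.

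Of the VEGF family ligands, *Vegfc* and *Pgf* were at least 2-fold higher in *Sipa1*-/- MSCs, though not with normexp. The *Vegfc* probe A_51_P433870 read 1.38, 2.62, -2.25 and -1.77. The other *Vegfc* probe, A_55_P2745057, read -3.39 and -1.99 on the MSC arrays and was not well above background on either CD8+ T array. Both probes were higher in the *Sipa1*-/- MSCs, with log2 ratios of 1.25 and 1.40 and a gene value of 1.33, or 2.51-fold. The *Pgf* probe read -1.81, -0.59, -4.36 and -4.13. It was higher on both MSC arrays than on both CD8+ T arrays, and its genotype ratio in MSCs was 1.22, or 2.34-fold. *Vegfb*, whose product supports coronary vessels and fatty acid uptake, read 0.18, 0.78, -0.67 and -0.46. Its ratio in MSCs was 0.59, or 1.51-fold.

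*Vegfa*, the main driver of vessel sprouting, has 4 probes on the array, and 3 of them were higher in *Sipa1*-/- MSCs. The probe A_52_P638895 read 1.97, 3.21, -0.74 and -1.25. The probe A_51_P482552 read 1.10, 1.99, -0.74 and -2.14, and A_52_P249424 read -0.32, 0.63, -2.98 and -3.28. On these probes *Vegfa* was brighter in MSCs than in CD8+ T cells, highest in the *Sipa1*-/- MSCs and lowest in the *Sipa1*-/- CD8+ T cells. The genotype ratios in MSCs were 1.25, 0.89 and 0.95. The probe A_55_P2741794 read -2.13, -2.63, -2.65 and -2.64, and was lower in *Sipa1*-/- MSCs by a log2 ratio of -0.50. The mean over all 4 probes was 0.65, or 1.57-fold, and the probe with the highest mean signal gave 1.25.

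The neuropilins behaved differently from each other. The *Nrp1* probe A_55_P2830615 read 2.07, 3.38, 0.86 and 1.62. The probe A_65_P18547 read -0.23, 1.22, -1.48 and -0.55, and A_52_P371237 read -3.01, -1.46, -3.78 and -3.10. All 3 placed the arrays in the same way, with each *Sipa1*-/- array above its Wt partner. The ratios in MSCs lay between 1.31 and 1.55, with a mean of 1.44, or 2.71-fold.

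For *Nrp2* the 3 probes, which the array design assigns to different transcript variants, disagreed in MSCs. The probe A_52_P93910 read 0.77, 2.66, 2.46 and 2.40, and A_55_P2735175 read -5.17, -3.58, -4.58 and -4.80. In both, the Wt MSC array was the lowest and the *Sipa1*-/- MSC array the highest, with genotype ratios of 1.89 and 1.59. The second of these 2 probes was faint. The lowest level counted as well above background on the Wt MSC array was -5.86. Its ratio in MSCs had the largest scanner error of the 18 probes, 0.30. The probe A_55_P2800321 read 4.56, 3.90, 4.88 and 4.90, with a log2 ratio of -0.66 in MSCs. The gene value of 0.94, or 1.92-fold, averages probes of opposite direction, and with the probe of highest signal alone it turned to -0.66.

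**Figure D2:**
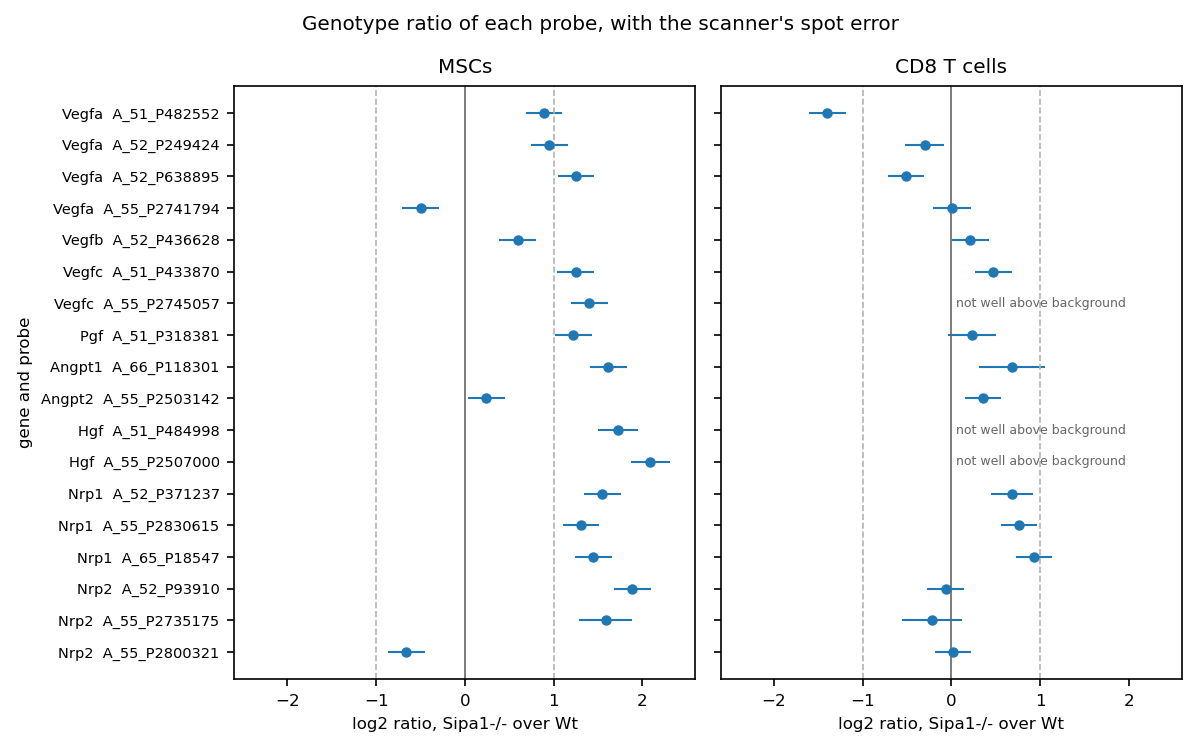
Genotype log2 ratio, *Sipa1*-/- over Wt, of the 18 probes in MSCs (left) and of 15 in CD8+ T cells (right). Bars are the scanner's spot error and dashed lines mark a 2-fold difference. Both *Hgf* probes and the *Vegfc* probe A_55_P2745057 were not well above background in CD8+ T cells and have no point there. In MSCs 16 probes lie above 0, and the exceptions are 1 probe of *Vegfa* and 1 of *Nrp2*. The *Angpt1* point in CD8+ T cells comes from a spot with a non-uniform background ring.

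Transcripts of other cells differed between the MSC arrays as well. The B-lineage list was lower on the *Sipa1*-/- array for 11 of 11 measured genes, all at least 2-fold, with a median log2 ratio of -4.22. Its summed signal, in multiples of the 75th percentile, was 689, 42.3, 29.8 and 21.5. The highest signal among them, which depends on the probe and does not rank abundance, was that of *Vpreb1* on the Wt MSC array (7.57), *Vpreb3* on the *Sipa1*-/- MSC array (3.57) and *Cd79b* on both CD8+ T arrays, and *Rag1* was above background on the Wt MSC array alone. The pan-leukocyte list was lower for 10 of 10 genes, 8 of them at least 2-fold, with summed signals of 177, 47.2, 670 and 643, with the highest signal from *Coro1a* on the Wt MSC array and *Cd52* on the others. *Ptprc*, which encodes the CD45 used to remove leukocytes in the MSC sort, read 0.76, -0.55, 4.38 and 4.48. The Wt MSC sample thus held more RNA of the B-lineage and pan-leukocyte lists, which was not so for every leukocyte list. Of the CD8+ T markers 7 of 11 were higher on the *Sipa1*-/- MSC array, 3 of them at least 2-fold, and 4 at least 2-fold lower, with a median of 0.56, while their summed signal was lower there (24.2 in Wt and 6.85 in *Sipa1*-/- MSCs), *Cd2* being the highest in Wt. Of the granulocyte markers 7 of 9 were higher, with a median of 0.22. The part of these cells in the higher angiogenic factor signals of the *Sipa1*-/- array was not tested.

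Fibroblast markers moved with the angiogenic factors. All 13 measured were higher on the *Sipa1*-/- MSC array, 8 of them at least 2-fold, with a median of 1.14 and summed signals of 1154, 2050, 262 and 363 on the 4 arrays, with the highest signal from *Col1a2* on the MSC arrays and *Thy1*, a gene that T cells express too, on the CD8+ T arrays. *Pdgfrb* read 1.74, 3.76, -2.77 and -1.09, and *Pdgfra*, whose spot had a non-uniform background ring on the MSC arrays, read 3.01, 4.52, -1.88 and -0.44. The pericyte list was higher for 8 of 9 genes, with a median of 1.09, summed signals of 34.2, 35.3, 38.0 and 44.7, and *Mcam* as the gene of highest signal except on the *Sipa1*-/- MSC array, where it was *Acta2*. The macrophage list was higher for 9 of 10, with a median of 1.04, summed signals of 7.02, 11.1, 25.9 and 20.4, and the highest signal from *Cd14* on the Wt and *Csf1r* on the *Sipa1*-/- arrays. Both MSC samples carried strong fibroblast signal, and with it granulocyte signal (summed 726 in Wt and 815 in *Sipa1*-/- MSCs) and, in spite of the Ter119 gate, erythroid signal (627 and 670), with erythroid medians 5.33 and 6.73 above the CD8+ T arrays. Erythroid markers were level between the MSC arrays, with 3 of 6 higher and a median of -0.02 that turned to 0.18 with the values of the deposited series matrix, which are scaled by another constant per array. The share of cells of each type and the RNA per cell cannot be told apart in bulk samples. Keratinocyte markers were higher for 6 of 6, with a median of 0.68, summed signals of 5.80, 6.76, 9.0 and 11.6 and the highest signal from *Trp63*, and megakaryocyte markers for 4 of 5, with a median of 0.34, summed signals of 1.53, 1.85, 0.853 and 0.784 and the highest signal from *Pf4*. For all these marker lists their part in the result was not tested.

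Endothelial cells, a common source of *Angpt2*, were removed in the MSC sort by CD31. *Pecam1*, the CD31 gene, read -1.47, -2.96, -1.05 and -1.23 on the 4 arrays. *Cdh5* read -2.94, -2.98, -1.99 and -2.01, and all these readings were above background. Both genes were thus brighter on the CD8+ T arrays than on the MSC arrays. The endothelial list was higher on the *Sipa1*-/- array for 10 of 15 measured genes, with 4 past 2-fold upward and 2 downward, *Erg* (-3.83) and *Pecam1*, a median of 0.69 that was 0.21 with normexp, summed signals of 14.2, 18.5, 7.55 and 8.52 on the 4 arrays, and *Egfl7* as the gene of highest signal except on the *Sipa1*-/- MSC array, where it was *Flt1*. Gene by gene, the median MSC over CD8+ T ratio of the list was -0.76 in Wt and -0.96 in *Sipa1*-/- mice. In Wt mice 5 of 13 measured genes were higher in MSCs, against 46.6% of all genes. In *Sipa1*-/- mice 6 of 15 were, against 42.9%. The higher sums on the MSC arrays thus do not hold for most genes of the list. *Tie1* was not well above background on either MSC array and *Lyve1* on any of the 4. The list shares *Kdr*, *Flt1*, *Tek* and *Tie1* with the receptors described next, and *Egfl7* with the other pro-angiogenic genes. Its part in the result was not tested.

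The receptors of these ligands were also measured in the sorted MSCs. *Flt1*, the receptor of VEGF-A, VEGF-B and placental growth factor, read 1.30, 3.36, -1.25 and -0.29. *Kdr* read -3.33, -1.62, -0.13 and 0.35, and *Flt4* was not well above background on any array. *Flt1* was thus brightest in the *Sipa1*-/- MSCs and *Kdr* in the CD8+ T samples, with genotype ratios in MSCs of 2.06 and 1.71. Of the receptor list, which includes the neuropilins, 4 of 4 measured genes were higher and 3 at least 2-fold, with a median of 1.57. The ligand list, to which *Vegfd* was added, had 5 of 5 genes higher, 3 of them at least 2-fold, with a median of 1.22. *Vegfd*, a lymphangiogenic ligand like *Vegfc*, had a mean level of 1.00 on the Wt and 2.36 on the *Sipa1*-/- MSC array, a ratio of 1.35.

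In the angiopoietin-Tie list 5 of 5 measured genes were higher in *Sipa1*-/- MSCs and 4 at least 2-fold, with a median of 1.53. *Tek*, the receptor of both angiopoietins, read -1.55 on the Wt and -0.02 on the *Sipa1*-/- MSC array, and was below background on the Wt CD8+ T array. *Angpt4* read -4.24 and -1.10 on the MSC arrays, a ratio of 3.13, and *Ptprb*, the phosphatase that dampens Tek, read -3.69 and -2.28, a ratio of 1.40. Members of this system were thus higher together on the *Sipa1*-/- MSC array, with *Angpt2* the smallest difference among them. *Tie1*, the partner receptor of Tek, was measured on the CD8+ T arrays alone, at -3.97 in Wt and -4.50 in *Sipa1*-/- cells. Of the angiopoietin-like genes 4 of 4 measured were higher and 2 at least 2-fold, *Angptl1* at 2.23 and *Angptl2* at 2.05, with a median of 1.43.

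The HGF-Met list was mixed. *Met*, the receptor of HGF, read -2.66 on the Wt and -1.21 on the *Sipa1*-/- MSC array on its measured probe, a ratio of 1.45, and *Plau*, a protease that can activate pro-HGF, read -1.96 and 0.52, a ratio of 2.48. The membrane protease gene *St14* went the other way, from -0.67 to -4.16, a ratio of -3.49. The remaining ratios were 0.78 for *Spint1* and -0.44 for *Spint2*, which encode inhibitors of the HGF-activating proteases, and 0.62 for *Hgfac* and -0.79 for *Hpn*, which encode such proteases. In all, 5 of 8 genes were higher, with 3 past 2-fold upward and 1 downward, and the median was 0.70. *Hgf* and *Met* were both among the higher genes, and the activating enzymes differed in direction.

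Neuropilins also bind class 3 semaphorins. The semaphorin-plexin list was higher in *Sipa1*-/- MSCs for 10 of 10 measured genes, against 51.8% of all genes, with a median of 1.61. Of these 10, 8 were at least 2-fold higher, against 19.3% of all genes. The highest ratios of the list were those of *Plxna4* (2.84), *Sema3a* (2.35) and *Sema3b* (2.09). Other pro-angiogenic genes were higher in 14 of 15, with a median of 1.67, led by *Apln* (2.56), *Ptn* (2.52) and *Efnb2* (2.43). Genes whose products restrain angiogenesis were higher too, in 10 of 10 measured with a median of 1.50, led by the thrombospondin gene *Thbs2* (2.43), *Timp3* (2.13) and *Adamts1* (1.96). Pro- and anti-angiogenic transcripts were therefore higher on the same array, at least 2-fold in 12 of 15 and 8 of 10 genes. Of all genes, 51.8% were higher and 19.3% at least 2-fold, and the difference between these lists was not tested. The hypoxia response list holds HIF targets and genes of the HIF pathway itself (*Hif1a*, *Epas1* and *Vhl*). It was higher for 20 of 20 genes, 11 of them at least 2-fold, against 51.8% and 19.3% of all genes. The list had a median of 1.14 and was led by *Egln3* (2.44), *P4ha1* (1.98) and *Ndrg1* (1.91). The median shift moved these ratios by -0.14. This turned *Pdk1* (0.04), *Ldha* (0.11) and *Kdm3a* (0.11) to lower and took *Egln1* (1.03) below 2-fold.

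**Figure D3:**
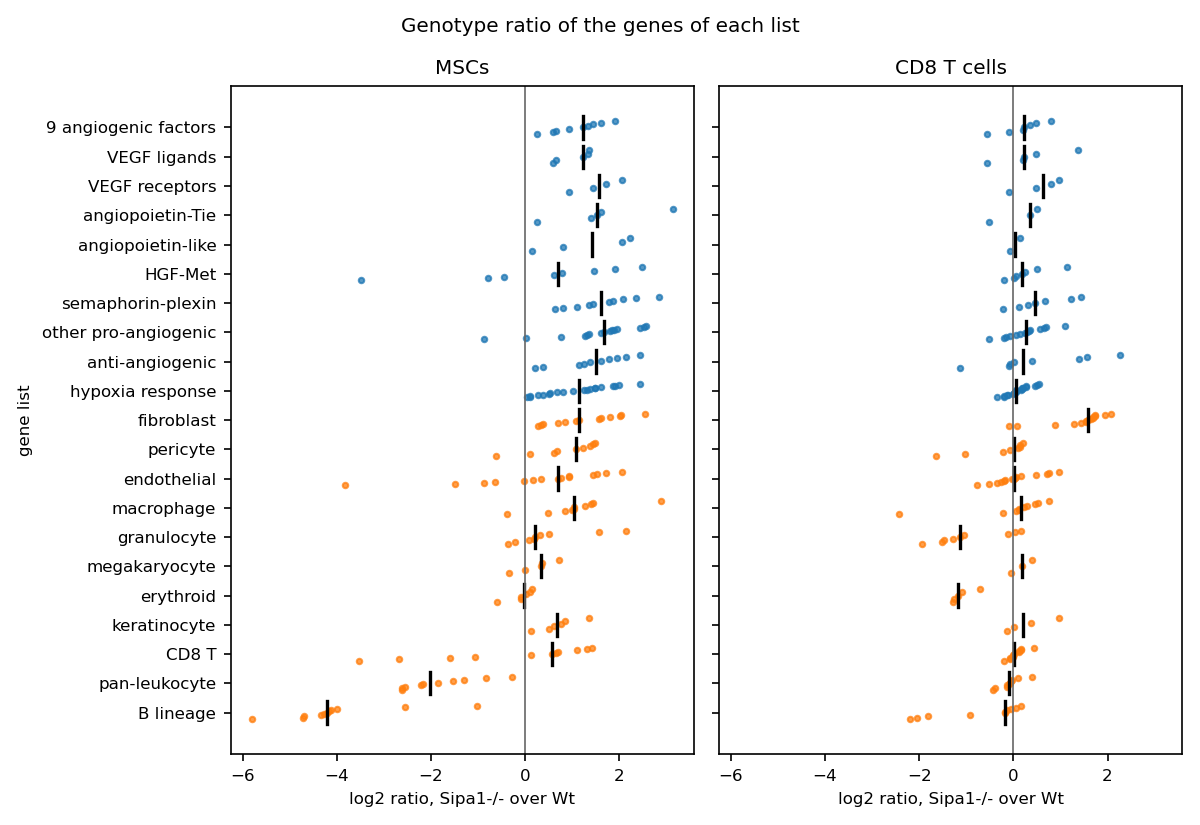
Genotype log2 ratio, *Sipa1*-/- over Wt, of each measured gene of the pathway lists (blue) and cell type marker lists (orange) in MSCs (left) and CD8+ T cells (right), with the median of each list as a black line. In MSCs the medians of the angiogenic lists lie between 0.70 and 1.67 and that of the B-lineage list at -4.22.

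In CD8+ T cells no angiogenic factor had a 2-fold genotype difference in its gene value. Of the 9 genes, 7 passed the spot flags on both arrays, since *Hgf* was below background and the *Angpt1* spot was marked. Of these 7, 5 were higher on the *Sipa1*-/- array, as were 46.1% of the 14336 measured genes. None of the 7 passed 2-fold in either direction (0 of 7 and 0 of 7), against 2.66% of all genes upward and 1.40% downward. The median log2 ratio of the 7 was 0.23, beside -0.02 for all genes, which turned to 0.11 with the series matrix values. *Nrp1* had the highest ratio, 0.79 or 1.73-fold, and its 3 probes gave 0.68, 0.76 and 0.93. *Vegfc* had 0.47 on its measured probe, *Pgf* 0.23 and *Vegfb* 0.21. *Nrp2* was level, with probe ratios of -0.07, -0.22 and 0.02 and a gene value of -0.09 that turned to 0.04 with the series matrix values. *Vegfa* had the lowest ratio, -0.55, from probes at -1.40, -0.51, -0.30 and 0.01.

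Stromal transcripts also differed between the CD8+ T arrays. On the *Sipa1*-/- array 14 of 15 fibroblast markers were higher, against 46.1% of all genes, with a median of 1.58. Of them 12 were at least 2-fold higher, against 2.66% of all genes. *Vegfd* was 1.38 higher there on the log2 scale and *Plau* 1.15, each on the 1 of its 2 probes that passed. The receptor genes *Flt1* and *Kdr* had ratios of 0.96 and 0.48. *Kdr* is not a stromal transcript by these arrays, with MSC over CD8+ T ratios of -3.20 in Wt and -1.97 in *Sipa1*-/- mice. In the other direction, 7 of 9 granulocyte markers were lower and 6 at least 2-fold, with a median of -1.12 and summed signals of 726, 815, 627 and 332. Erythroid markers were lower for 5 of 5, with a median of -1.18 and summed signals of 627, 670, 17.2 and 7.70. Of all genes 46.1% were higher and 1.4% at least 2-fold lower, and these shares apply to each list counted in this paragraph. *S100a9* had the highest signal of the granulocyte list and *Hba-a1* of the erythroid list on every array. The *Sipa1*-/- CD8+ T sample therefore held more fibroblast RNA and less granulocyte and erythroid RNA than the Wt sample. Of the B-lineage list 2 of 10 genes were higher, with a median of -0.17. At least 2-fold lower were 3, *Vpreb1* (-2.04), *Vpreb3* (-1.82) and *Igll1* (-2.21). Of the pericyte list 4 of 8 were higher and 2 at least 2-fold lower, *Rgs5* (-1.64) and *Kcnj8* (-1.04). The part of these cells in the ratios of *Nrp1*, *Vegfc* and *Vegfa* was not tested. The CD8+ T markers themselves had a median of 0.01, which turned to -0.14 with the median shift, and summed signals of 24.2, 6.85, 665 and 679, with the highest signal from *Cd8b1* on the CD8+ T arrays, *Cd2* on the Wt MSC and *Cd247* on the *Sipa1*-/- MSC array. *Cd8a* read 3.46 and 3.57 on the CD8+ T arrays and was not well above background on the Wt MSC array, and *Cd3e* read 4.15 and 4.31.

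Set between cell types, not every factor was brighter in stroma. In Wt mice 5 of 7 measured genes were higher in MSCs than in CD8+ T cells, against 46.6% of 14222 genes. Past 2-fold were 4 of 7 upward and 0 of 7 downward, against 17.3% and 12.8% of these genes. The upward count was 3 of 7 with the median shift, quantile normalization and normexp, where *Nrp1* was at 0.85, 0.99 and 0.79, and 5 of 7 with the series matrix values. In *Sipa1*-/- mice 6 of 7 were higher, *Nrp2* only with some scalings, against 42.9% of 14296 genes. There 5 of 7 were past 2-fold upward and 0 of 7 downward, against 21.9% and 18.7% of the genes. The medians over these 7, which leave out *Hgf* and *Angpt1*, were 1.08 and 1.72. Over the 2 genes above the median signal in Wt the median turned to -0.00581. The medians of all genes were -0.06 and -0.18, which turned to 0.39 and 0.34 with the series matrix values. These comparisons share their arrays with the genotype ratios and add no independent evidence to them.

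*Vegfc* was higher in MSCs, with MSC over CD8+ T ratios of 3.62 in Wt and 4.40 in *Sipa1*-/- mice, or 12.3-fold and 21.1-fold, and 2.89 and 3.73 with normexp. *Pgf* had 2.55 and 3.54, which were 1.16 and 1.98 with normexp. *Vegfa* had 1.93 and 3.13, with 2.71 and 4.47 for the probe of highest signal and 2.52 in *Sipa1*-/- mice with normexp. *Nrp1* had 1.08 and 1.72, and *Vegfb* 0.86 and 1.24. *Angpt2* was at -0.11 and -0.22 and turned to 0.35 and 0.30 with the series matrix values, so no direction is given for it. *Nrp2* was lower in MSCs in Wt mice, at -0.87, and in *Sipa1*-/- mice it was 0.16, which turned to -0.06 with the median shift and to -0.19 with normexp and to -0.999 with the probe of highest signal. Since *Nrp2* was lower in the Wt MSC sample and *Angpt2* had no steady direction, the 9 genes are called angiogenic factors here and not stromal ones.

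The genes nearest in profile over the 4 arrays were found by the Euclidean distance of centered log2 levels, among 12913 genes with probes passing on every array. *Vegfa* lay nearest to *Tmem17* (0.08), *Shank3* (0.14) and *Tlr4* (0.17), and *Vegfb* to *Pde4a* (0.03). *Vegfc* lay nearest to *Gstm4*, *Serpina3i* and *Arhgap20*, at distances from 0.11 to 0.12, and *Pgf* to *Rab3il1*, *Ppp1r27* and *Pam*, from 0.08 to 0.09. With *Nrp1* the nearest was *Plxnd1* (0.10), itself on the semaphorin-plexin list, followed by *Dip2a* (0.13) and *Tmprss6* (0.15). *Nrp2* lay nearest to *Ly6c2*, *Ccdc34os* and *Rapgef2*, and *Angpt2* to *Gbp10*, *Pitpnm2os1* and *Cep162*, all within 0.09. *Hgf* and *Angpt1* have no probe that passed on all 4 arrays and were not ranked. With 4 arrays such closeness is a description only.

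The promoters of the genes at least 2-fold higher in *Sipa1*-/- MSCs with a promoter entry are shown because these members were higher together and the hypoxia response list with them. A part of hypoxia in their higher signal was not tested. RefSeq promoter entries of GRCm38.p6 were matched for 7 of the 9 genes, with 10 starts. The core bound by hypoxia-inducible factors, searched as ACGTG and GCGTG on both strands of the 250 bases before each start, occurred in 6 of the 10, and in 38.6% of all 32851 promoters. The GC box GGGCGG occurred in 7 of the 10 and in 32.7% of all promoters. The sequences run 5′ to 3′ on the strand of the gene and end at the most upstream start listed, and capitals mark ACGTG or GCGTG or their reverse complements.
*Nrp1*, chr8:128358823-128359072, plus strand: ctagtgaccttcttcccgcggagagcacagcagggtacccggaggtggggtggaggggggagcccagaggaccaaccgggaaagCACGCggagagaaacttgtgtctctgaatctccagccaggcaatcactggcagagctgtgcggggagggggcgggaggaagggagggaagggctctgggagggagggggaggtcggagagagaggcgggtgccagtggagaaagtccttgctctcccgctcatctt
*Pgf*, chr12:85177314-85177563, minus strand: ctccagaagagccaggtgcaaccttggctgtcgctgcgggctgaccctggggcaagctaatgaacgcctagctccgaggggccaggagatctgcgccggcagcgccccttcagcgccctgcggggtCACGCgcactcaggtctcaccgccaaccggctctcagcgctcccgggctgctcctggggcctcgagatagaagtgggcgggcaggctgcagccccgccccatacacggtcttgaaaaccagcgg
*Hgf*, chr5:16553245-16553494, plus strand: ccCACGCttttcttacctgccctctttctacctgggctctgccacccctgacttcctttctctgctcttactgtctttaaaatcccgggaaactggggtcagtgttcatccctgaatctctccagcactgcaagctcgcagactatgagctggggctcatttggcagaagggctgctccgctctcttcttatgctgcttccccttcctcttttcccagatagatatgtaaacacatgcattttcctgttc
*Vegfc*, chr8:54077282-54077531, plus strand: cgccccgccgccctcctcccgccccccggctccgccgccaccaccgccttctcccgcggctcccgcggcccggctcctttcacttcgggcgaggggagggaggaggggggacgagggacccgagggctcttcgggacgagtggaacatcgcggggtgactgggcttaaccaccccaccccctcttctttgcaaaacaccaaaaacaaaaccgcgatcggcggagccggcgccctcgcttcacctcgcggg
The windows of *Nrp1*, *Pgf* and *Hgf* each hold 1 GCGTG, read on the opposite strand, and that of *Vegfc* holds none of the letters searched except 2 GC boxes. The windows of the other start listed for *Hgf* and for *Pgf* hold neither core and no GC box. Among the genes short of 2-fold, the windows of *Nrp2* and *Vegfb* each hold 2 GCGTG. For *Vegfa* the window of the most upstream start listed, at 46032377 on the minus strand of chr17, holds neither core. The window of its other start, at 46025163 and so downstream of the first, holds 1 ACGTG and 1 GCGTG. That window is among the 6 of 10 counted, though it lies past the upstream start. The cores were thus not particular to the genes past 2-fold. A match describes the letters of the window and not a site in use.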

How the data were processed

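Spot intensities were made before deposit by the authors with Agilent Feature Extraction, version 9.1 per the processing notes and 12.0.3.1 per the file headers, which subtract background to give the processed signal used here. Array symbols came from the RefSeq table, which named 57.6% of the spots other than controls. The 75th percentile of each array was subtracted from its log2 signals. Spots flagged as saturated, non-uniform in spot or background ring, or not positive and well above background on either array of a pair were left out, and the probes of a gene were averaged as a log2 ratio, with 2-fold as threshold. The series matrix values are the scanner values times 1 constant per array (1.13, 1.34, 0.941 and 1.13). Alternatives were a median shift, quantile normalization and normexp (limma), the series matrix values, other flag rules, the probe of highest signal, and genes above the median signal. Since the files hold no mean signal, normexp used the median signal, with an offset of 50. Named from each pathway list are up to 3 genes with the highest and up to 3 with the lowest ratio in MSCs past 2-fold, every gene of the VEGF receptor, angiopoietin-Tie and HGF-Met lists, and the highest-signal and defining genes of the marker lists. The members and lists were chosen with earlier results of these data known. The lists were VEGF ligands and receptors, angiopoietin-Tie, angiopoietin-like, HGF-Met, semaphorin-plexin, other pro-angiogenic, anti-angiogenic and hypoxia response genes, and markers of fibroblasts, pericytes, endothelium, CD8+ T cells, B lineage, leukocytes, macrophages, granulocytes, megakaryocytes, erythroid cells and keratinocytes. Python 3.11.15, numpy 2.4.6, pandas 2.3.3, matplotlib 3.10.9, R 4.3.3 and limma 3.58.1 were used.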

Additional observations from a re-analysis of the deposited data

Results flagged for a closer look

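For *Vegfa* and *Nrp2* the genotype ratios had opposite signs in the 2 cell types, which for *Nrp2* did not hold with the series matrix values. *Vegfa* was higher on the *Sipa1*-/- array in MSCs (log2 ratio 0.65) and lower in CD8+ T cells (-0.55), and the difference was not tested. *Nrp2* was higher in MSCs (0.94, with -0.66 for the probe of highest signal) and about level in CD8+ T cells (-0.0895, which turned to 0.04 with the series matrix values), and the difference was not tested.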

How the results depend on the processing

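No paired analysis was possible because a single array stands for every condition. Whether the MSC and CD8+ T arrays of a genotype come from the same mice is not given in the sources used here. The arrays carry no measure of the spread between mice, the scanner's error covers the spots alone, and whether mice were pooled is not known. Bulk sorted samples hold RNA of other cells. For the 9 angiogenic factors the directions in MSCs were the same in every alternative that measured the gene, except that of *Nrp2*. It turned to -0.66 with the probe of highest signal. In the lists, small positive MSC ratios turned with the median shift, as those of *Pdk1* (0.04), *Tymp* (0.01) and *Krt10* (0.12). The erythroid median of -0.02 turned to 0.18 with the series matrix values. The number of genes measured differs by construction with the flags and the signal filter, and the cause of the other differences was not tested.

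The median shift moved the all-gene medians by -0.14, -0.15, -0.23 and -0.22 for the genotype ratios in MSCs and CD8+ T cells and for MSC over CD8+ T in Wt and *Sipa1*-/- mice, and the series matrix values moved them by 0.21, 0.13, 0.45 and 0.53. With the median shift 1 of the angiogenic factors was at least 2-fold lower in Wt MSCs than in CD8+ T cells. With the series matrix values 1082 genes were at least 2-fold lower in MSCs than in CD8+ T cells in Wt and 1357 in *Sipa1*-/- mice. With normexp 3 angiogenic factors and 1827 genes were at least 2-fold higher in *Sipa1*-/- MSCs, and past 2-fold were 108 genes upward and 98 downward in *Sipa1*-/- CD8+ T cells.

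With flags needed on 1 array only, past 2-fold in *Sipa1*-/- CD8+ T cells were 684 genes upward and 371 downward, the medians over all 9 angiogenic factors for MSC over CD8+ T were 1.93 in Wt and 3.13 in *Sipa1*-/- mice, and 3896 and 4737 genes were past 2-fold upward in MSCs. The higher medians follow from the rule, since *Hgf* and *Angpt1* enter only through the MSC arrays, where they are higher than on the CD8+ T arrays. With no flags these numbers were 1058 and 633, 1.93 and 3.13, and 4183 and 5017.

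Only some angiogenic factors lie among the genes above the median signal, with their own ratios unchanged, and all counts here are past 2-fold. Of 5 measured in MSCs, 2 were higher in *Sipa1*-/- cells, with 1307 genes higher and 901 lower, and in CD8+ T cells, with 1 measured, 67 genes were higher and 70 lower. For MSC over CD8+ T in Wt mice the median of the 2 measured, *Vegfb* and *Nrp2*, was -0.00581 where that of 7 was 1.08, with 0 of 2 higher and 860 genes higher and 861 lower. In *Sipa1*-/- mice 3 of 4 measured were higher, with 1306 genes higher and 1384 lower.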
